A study of Mus musculus with 2 samples.

Results

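The kidney moves water through aquaporin channels and urea through facilitated transporters, and 9 genes of this system are described here: the water channels Aqp1, Aqp2, Aqp3, Aqp4, Aqp6 and Aqp11, the urea transporters Slc14a1 and Slc14a2, and Avpr2, the vasopressin receptor that governs several of them. They were chosen by name for their function, and all 9 were found among the 32285 genes counted. They were measured by droplet single-cell RNA sequencing of injured mouse kidneys in 2 libraries. The control library came from mice of genotype Cre-. The haplodeficient library came from Cdh5-CreERT2; Phd3f/+ mice, in which a tamoxifen-dependent Cre under the promoter of the endothelial cadherin gene Cdh5 can delete 1 floxed allele of Phd3 (Egln3), an oxygen-sensing prolyl hydroxylase. Mice of both groups had the artery of 1 kidney clamped and released, received 4 injections of tamoxifen after that injury, and gave kidneys at day 14. Whether control mice carried the floxed allele, how many animals went into a library, and their age, sex and strain were not given in the labels. With 1 library per group no difference below has a replicate check. Intervals in parentheses are exact 95% intervals that cover counting error only.

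Water reabsorption follows the segments of the nephron. Aqp1 forms the constitutive water channel of the proximal tubule, of the thin descending limb and of the descending vasa recta, the capillary-like vessels that carry blood into the medulla. In principal cells of the collecting duct, vasopressin binds its receptor Avpr2 on the basolateral side, cAMP rises, and vesicles with Aqp2 fuse with the apical membrane, while Aqp3 and Aqp4 let the water leave through the basolateral membrane. Vasopressin also raises transcription of Aqp2 over a longer time. Aqp6 sits in intracellular vesicles of acid-secreting intercalated cells, and Aqp11 in the endoplasmic reticulum, in the kidney mainly of proximal tubule cells. The urea transporter A gene Slc14a2 acts in the inner medullary collecting duct and in thin descending limbs, and the urea transporter B gene Slc14a1 in the descending vasa recta and in red cells. Together they recycle urea and keep the inner medulla concentrated. Aqp2 is a gene often reported as low after ischemic kidney injury.

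Counts are unique molecular identifiers (UMIs), each standing for 1 captured transcript molecule. The control library held 134190236 UMIs and the haplodeficient library 114668145. After filters 8737 control and 9222 haplodeficient cells were kept, with a median of 8762 and 5471.5 UMIs and of 10.2% and 2.69% mitochondrial UMIs. They shared 23 cell barcodes (0.263% and 0.249% of cells). Cells of the proximal tubule S1/S2-like class numbered 1857 in the control library and 376 in the haplodeficient one, so the libraries differed in cell make-up, depth and mitochondrial share together with the genotype. Egln3 itself was at 24.2 counts per 1000000 UMIs (CPM) in control and 21.04 CPM in haplodeficient endothelial-like cells, where the endothelial gene Cdh5 stood at 698 and 708 CPM. The counting did not separate a deleted allele, so this value is no check of the deletion. The part of the depth, mitochondrial share and dissociation of each library in the differences below was not tested.

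Cell classes were rebuilt by clustering both libraries together with the 9 genes left out, and named from marker lists, so the levels of the 9 genes did not decide which cells were grouped. A level is the sum of a gene's UMIs over the cells of a class per 1000000 UMIs of that class, so fewer transcript-bearing cells and fewer transcripts per cell cannot be told apart in it. Levels of different genes are not compared, since a count from the 3′ end depends on the gene. The plot of levels by class shows that each gene had most of its signal in few classes. In both libraries Aqp1, Aqp11 and Slc14a1 were highest in descending vasa recta-like endothelium, Aqp2, Aqp4 and Avpr2 in principal-cell-like cells, Aqp6 in type A intercalated-cell-like cells and Slc14a2 in thin-limb-like cells. Aqp3 was highest in principal-cell-like cells in the control library, with an interval that overlapped that of connecting-tubule-like cells. In the haplodeficient library it was highest in type A intercalated-cell-like cells, with intervals that overlapped those of the next class. Of the 432 levels of a gene in a class and library (9 genes, 24 classes, 2 libraries), 156 were without a UMI.

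**Figure D1:**
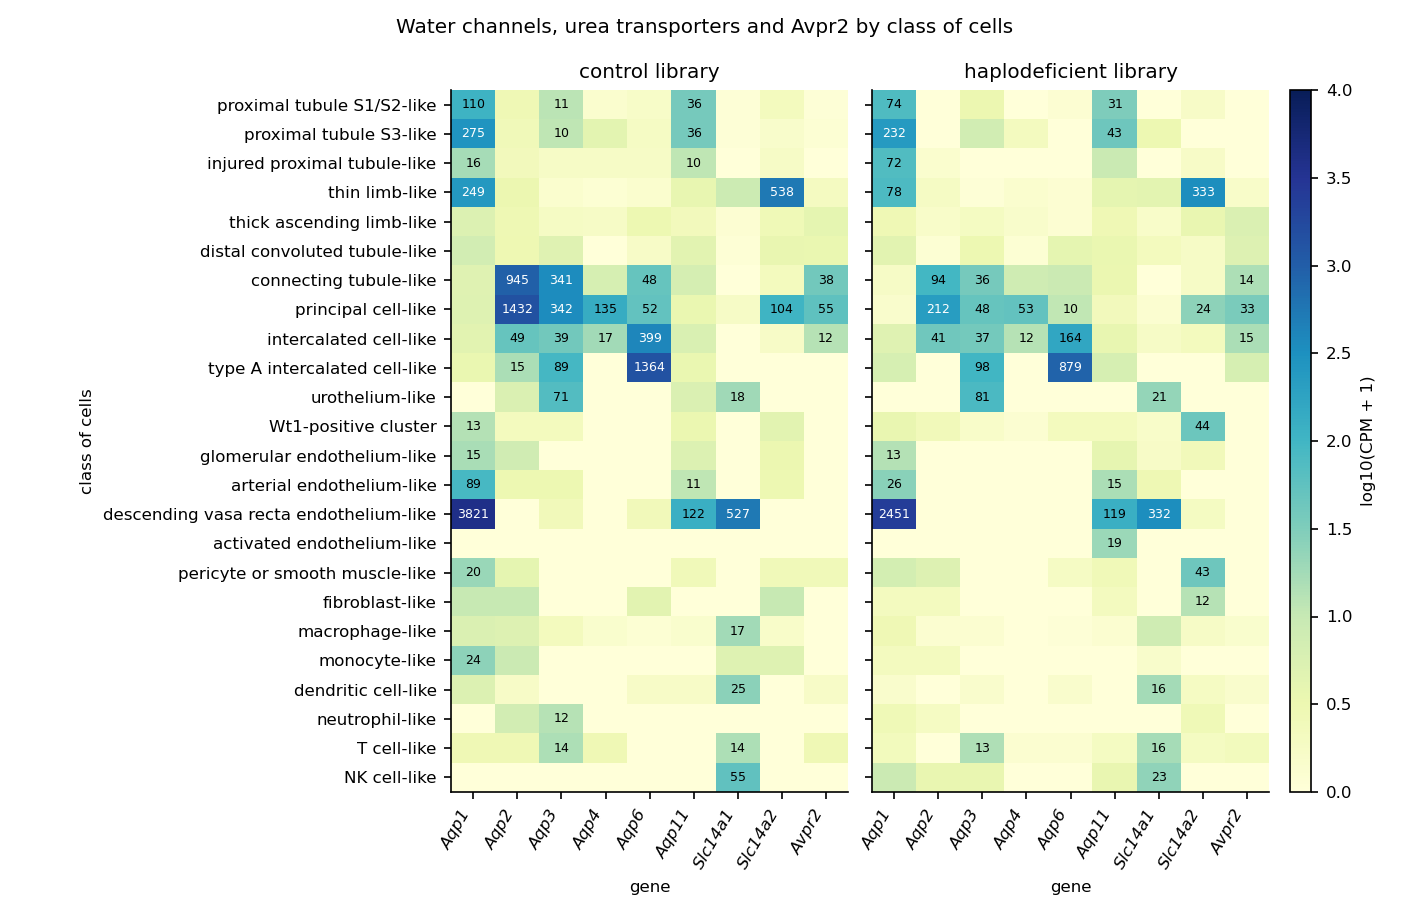
Level of each of the 9 genes (columns) in 24 cell classes (horizontal bands) of the control and the haplodeficient library, as the log10 of CPM plus 1, with levels of 10 CPM or more printed in the boxes. Aqp2 and Aqp3 are highest in the collecting system, Aqp4 in principal-cell-like cells and Aqp6 in intercalated-cell-like cells. Aqp1 is highest in descending vasa recta-like cells, followed by proximal tubule-like and thin-limb-like cells.

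A pair of a gene and a class was taken further where it held at least 30 UMIs over both libraries, which gave 55 pairs. The CPM ratio, haplodeficient over control, had an interval wholly below 1 in 28 of them, wholly above 1 in 3, and holding 1 in 24. The 3 were Aqp1 in injured proximal tubule-like cells and Slc14a2 in the Wt1-positive cluster and in pericyte-like cells. A size rule was also used: a mean of at least 50 CPM over both libraries, an absolute log2 ratio (after adding 5 CPM to each level) of at least 1, and Poisson intervals that did not overlap. Of the 20 pairs with enough CPM, 11 passed it, all lower in the haplodeficient library and none higher. Over all genes and 26 classes, 1.5% of 82345 pairs passed it as lower, 1.08% as higher and 2.58% in either direction. The 11 were Aqp2, Aqp3, Aqp4 and Slc14a2 in principal-cell-like cells, Aqp2 and Aqp3 in connecting-tubule-like cells, Aqp6 in intercalated-cell-like cells, Aqp1 in thin-limb-like cells, and Aqp1 and Slc14a1 in endothelial-like cells with Aqp1 again in their arterial-like part. These pairs are not independent of each other, since they share 2 libraries and, in the vessels, cells.

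**Figure D2:**
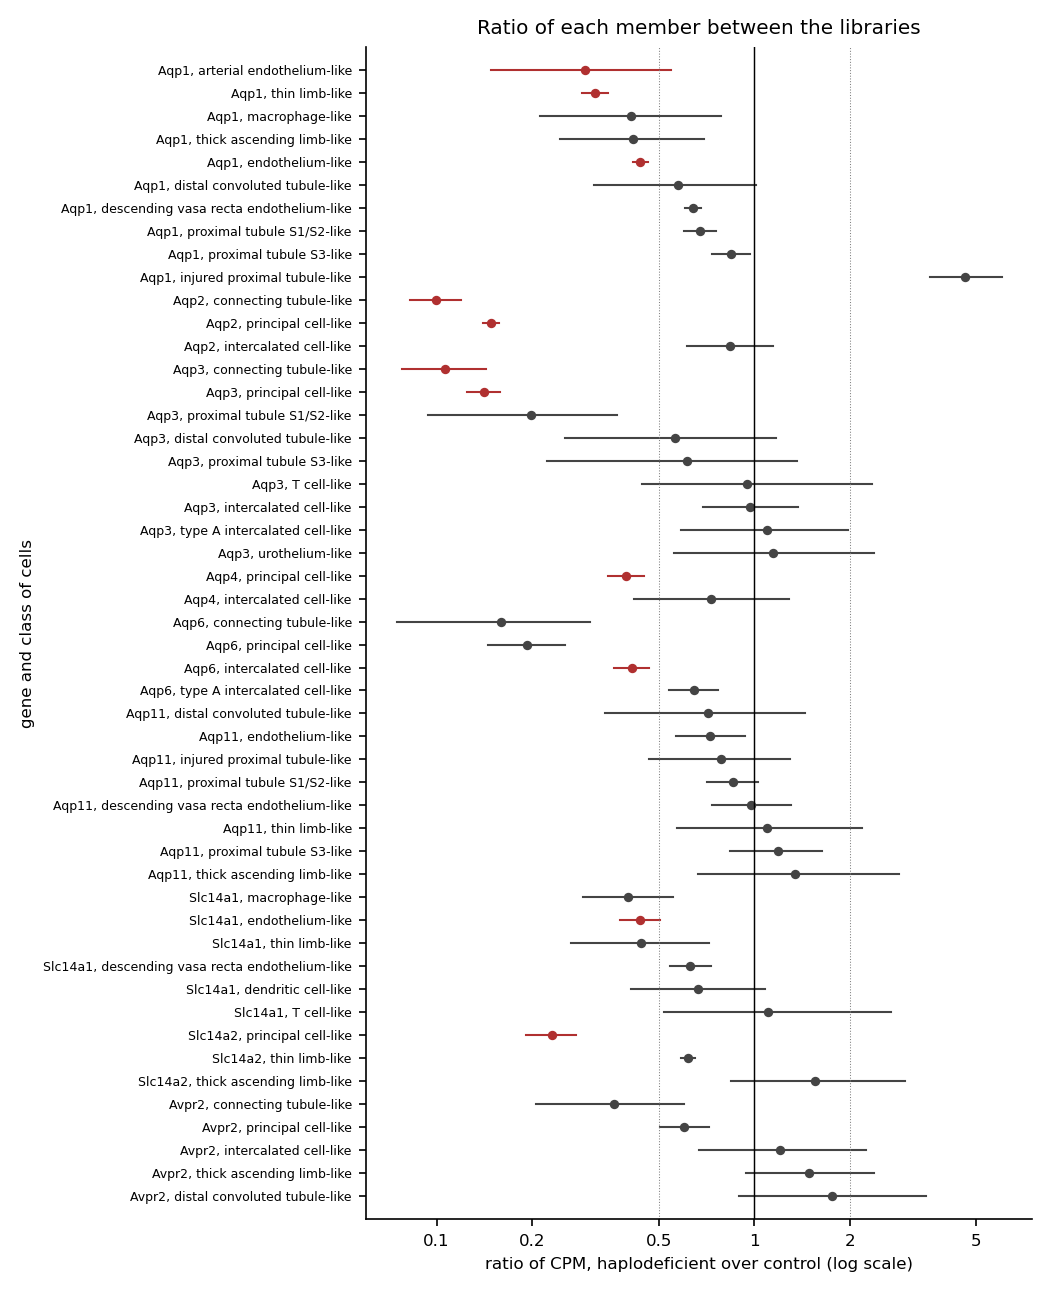
CPM ratio, haplodeficient over control, on a log axis with exact 95% intervals, for 50 of the 55 pairs of a gene and a class; 5 pairs with 3 or fewer UMIs in a library are not drawn. Pairs past the size rule are red, and the dotted lines mark ratios of 0.5 and 2: all 11 red points lie below 0.5, and few points of any colour lie above 1. Slc14a2 in the Wt1-positive cluster (3 control UMIs) and in pericyte-like cells (1 control UMI), both with intervals wholly above 1, is among the pairs not drawn.

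Avpr2 (ENSMUSG00000031390, chrX:73892102-73895502 on GRCm38), the vasopressin V2 receptor, had its highest level in principal-cell-like cells of both libraries. These were 424 control and 618 haplodeficient cells with a median of 7766.5 and 7072 UMIs. Its control level there was 55.4 CPM (49.2 to 62.1) and its haplodeficient level 33.4 CPM (29.1 to 38.1), a ratio of 0.603 (0.504 to 0.720). The intervals did not overlap, and the mean was too low for the size rule. Connecting-tubule-like cells had 38.4 and 13.9 CPM, with a ratio of 0.361 (0.206 to 0.600). Thick ascending limb-like cells, in which the receptor drives salt transport, had 3.05 and 4.53 CPM, and distal convoluted tubule-like cells 2.40 and 4.21 CPM. Free RNA, measured in barcodes of 1 to 100 UMIs, held 7.54 and 5.09 CPM of Avpr2. Its estimated share of UMIs was 5.66% and 4.85% for the thick ascending limb-like class. For the distal convoluted class that share was 8.34% and 9.22%. Scaled by these shares, free RNA would bring less Avpr2 than was measured in either class. The gene lies between L1cam and Arhgap4, which overlap it on the opposite strand, and whether the counting used strand is not given in the sources used here. L1cam was at 115 and 105 CPM in principal-cell-like cells, and Arhgap4 at 5.63 and 6.04 CPM.

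Aqp2 (ENSMUSG00000023013, chr15:99579055-99584547) and Aqp3 (ENSMUSG00000028435, chr4:41092722-41098183, minus strand) encode the apical and a basolateral water channel of the same cells, and they held the 4 lowest ratios among the 11 pairs past the size rule. Their promoters are shown because both genes were lower in the same cells while their upstream sequences share few of the letters searched. The windows are the 250 bases before the RefSeq start on GRCm38.p6, in lower case, with every match to a searched motif in capitals. The first motif is TGACG, the core of the cAMP response element, read as CGTCA on the other strand. The next is GATA, the core of GATA factor sites, read as TATC on the other strand. The last is TATAAA, read as TTTATA on the other strand. No matches overlap in these windows. The Aqp2 window is chr15:99578806-99579055 on the plus strand and the Aqp3 window chr4:41098184-41098433 on the minus strand, both written 5′ to 3′ along the gene.
Aqp2: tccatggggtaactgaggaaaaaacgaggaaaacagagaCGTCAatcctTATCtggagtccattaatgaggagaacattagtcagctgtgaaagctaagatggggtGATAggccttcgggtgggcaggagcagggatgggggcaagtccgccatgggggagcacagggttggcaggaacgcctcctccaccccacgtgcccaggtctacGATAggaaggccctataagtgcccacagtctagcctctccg
Aqp3: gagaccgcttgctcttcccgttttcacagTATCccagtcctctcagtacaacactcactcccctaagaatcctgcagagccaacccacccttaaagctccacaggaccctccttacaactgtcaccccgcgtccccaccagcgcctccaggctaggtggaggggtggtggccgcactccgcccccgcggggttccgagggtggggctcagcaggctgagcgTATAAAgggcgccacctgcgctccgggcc
The Aqp2 window holds 1 match to CGTCA, which begins 211 bases before the start, a TATC at 201 bases, and a GATA at 144 and at 41 bases. The Aqp3 window holds a TATC at 221 bases and a TATAAA at 29 bases, and no TGACG or CGTCA. Neither window holds the full palindrome TGACGTCA. Of 32851 RefSeq promoter windows of the same length, 17.8% held TGACG or CGTCA, 53.6% held GATA or TATC, 12.4% held TATAAA or TTTATA, and 1.55% the palindrome, so none of the short motifs is rare. A match of letters does not show that a factor is bound. Windows were at hand for 6 of the 9 genes.

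In principal-cell-like cells control cells held 7629 Aqp2 UMIs and haplodeficient cells 1406. The level was 1432 CPM (1400 to 1464) against 212 CPM (201 to 224), a ratio of 0.148 (0.140 to 0.157), or 6.75-fold lower. Aqp3 stood at 342 CPM (327 to 359) and 48.3 CPM (43.2 to 53.9), a ratio of 0.141 (0.125 to 0.159), or 7.09-fold lower. Both genes were thus lower by a like factor, and for each the intervals of the libraries lay far apart. Aqp4 (ENSMUSG00000024411, chr18:15389496-15410982), the other basolateral channel, was at 135 CPM (125 to 145) and 53.1 CPM (47.7 to 59.0), a ratio of 0.394 (0.346 to 0.449). Aqp4 overlaps an antisense gene, AC133525.2. Slc14a2, which in the collecting duct lets urea into the inner medulla, had 104 CPM (95.1 to 113) and 23.9 CPM (20.3 to 27.9), a ratio of 0.230 (0.192 to 0.275). These 4 genes were the ones of the 9 with enough CPM in this class, and all 4 passed the size rule. Of 3773 genes with enough CPM there, 1.06% passed it as lower and 1.46% in either direction. The median log2 ratio of the 4 was -2.31, and that of all 3773 genes -0.04. Aqp5, which lies 6234 bases after Aqp2, had 18 and 21 UMIs in these cells.

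Values of other kinds moved with these levels. The 618 haplodeficient cells had a median of 6.19% mitochondrial UMIs and the 424 control cells 9.55%. The summed level of the principal cell markers was 5269 and 4265 CPM. Free RNA made up an estimated 9.60% and 5.04% of the UMIs of this class, and at that share it would bring 13.2 and 1.09 CPM of Aqp2 and 4.04 and 0.495 CPM of Aqp3. The measured levels of both genes were many times these amounts. Of the marker lists of other classes, those of the S1/S2 proximal tubule (150 and 59.8 CPM), the thick ascending limb (234 and 137 CPM) and intercalated cells (930 and 558 CPM) were lower in the haplodeficient library. The summed lists of the thin limb (1485 and 2333 CPM), type B intercalated cells (767 and 1459 CPM) and monocytes (384 and 617 CPM) were higher. Their median markers stood at 2.06 and 1.21, 6.76 and 9.96, and 0.375 and 0.679 CPM, so a few genes carried each sum. Those of the lower lists, in the order given, stood at 4.41 and 0.981, 5.35 and 5.43, and 91.8 and 64.0 CPM. Spink8, the leading gene of a principal-cell-like subcluster described below, is on the type B list. The part of these lists in the aquaporin levels was not tested.

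The share of cells with a transcript differed in the same direction as the level. With every cell thinned to 1000 UMIs, which left out 12 control and 23 haplodeficient cells, Aqp2 was seen in 168 of 412 control principal-cell-like cells (40.8%, 36.0 to 45.7) and in 55 of 595 haplodeficient ones (9.24%, 7.04 to 11.9). Without thinning the shares were 60.6% and 23.6%. Thick ascending limb-like cells, which should lack Aqp2 and had a median of 14025 and 22435 UMIs, showed it after thinning in 1 of 524 and 1 of 481 cells (0.191% and 0.208%). The shares in principal-cell-like cells were therefore far above the background in both libraries. Aqp3 was seen in 17.7% and 3.70% of thinned principal-cell-like cells, Aqp4 in 9.22% and 4.37%, Slc14a2 in 6.07% and 1.85%, and Avpr2 in 4.61% and 2.35%. In thick ascending limb-like cells at most 2 thinned cells of either library had a UMI of any given gene of the 9. Aqp2 and Aqp3 were seen together in 64 of 412 control and 10 of 595 haplodeficient cells, and 87.7% of the control and 45.5% of the haplodeficient cells with Aqp3 also had Aqp2. None of Aqp2, Aqp3 and Aqp4 was seen in 224 of 412 and 512 of 595 cells. The share of cells with both Aqp2 and Aqp3 was 15.5% and 1.68%, where independent detection at the same shares would give 7.22% and 0.342%, so in each library the genes were found together more often than that. This comparison runs over the whole class and does not separate the subclusters described below.

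Principal-cell-like cells were not uniform, and the 2 libraries held different mixtures of them. Clustering the collecting system again, without the 9 genes, gave 7 subclusters of this class. The one led by Mgat4c held 93 control cells (21.9% of the class, 18.1 to 26.2) and 7 haplodeficient cells (1.13%, 0.457 to 2.32). There the Aqp2 level of the control cells was 5124 CPM (4988 to 5263) and that of the haplodeficient cells 4654 CPM (4106 to 5254), a ratio of 0.908 (0.799 to 1.03). Avpr2 was at 123 and 107 CPM and Aqp4 at 222 and 214 CPM in these cells, while Aqp3 was at 1378 and 785 CPM, with a ratio of 0.569 (0.412 to 0.768). Thinned to 1000 UMIs, Aqp2 was seen in 86 of 92 and 6 of 7 of these cells. Both Aqp2 and Aqp3 were seen in 53 of 92 control cells (57.6%) and 4 of 7 haplodeficient cells (57.1%). Independent detection would give 54.9% and 49.0%, so within this subcluster the control share was near that of independent detection. Principal cell markers of the subcluster summed to 9767 and 9575 CPM, and the median UMIs of its cells were 7833 and 9719. The few haplodeficient cells of this kind thus carried Aqp2 near the control level, but they were 7 cells of 1 library. A subcluster that comes almost only from 1 library may be that library and not a kind of cell.

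**Figure D3:**
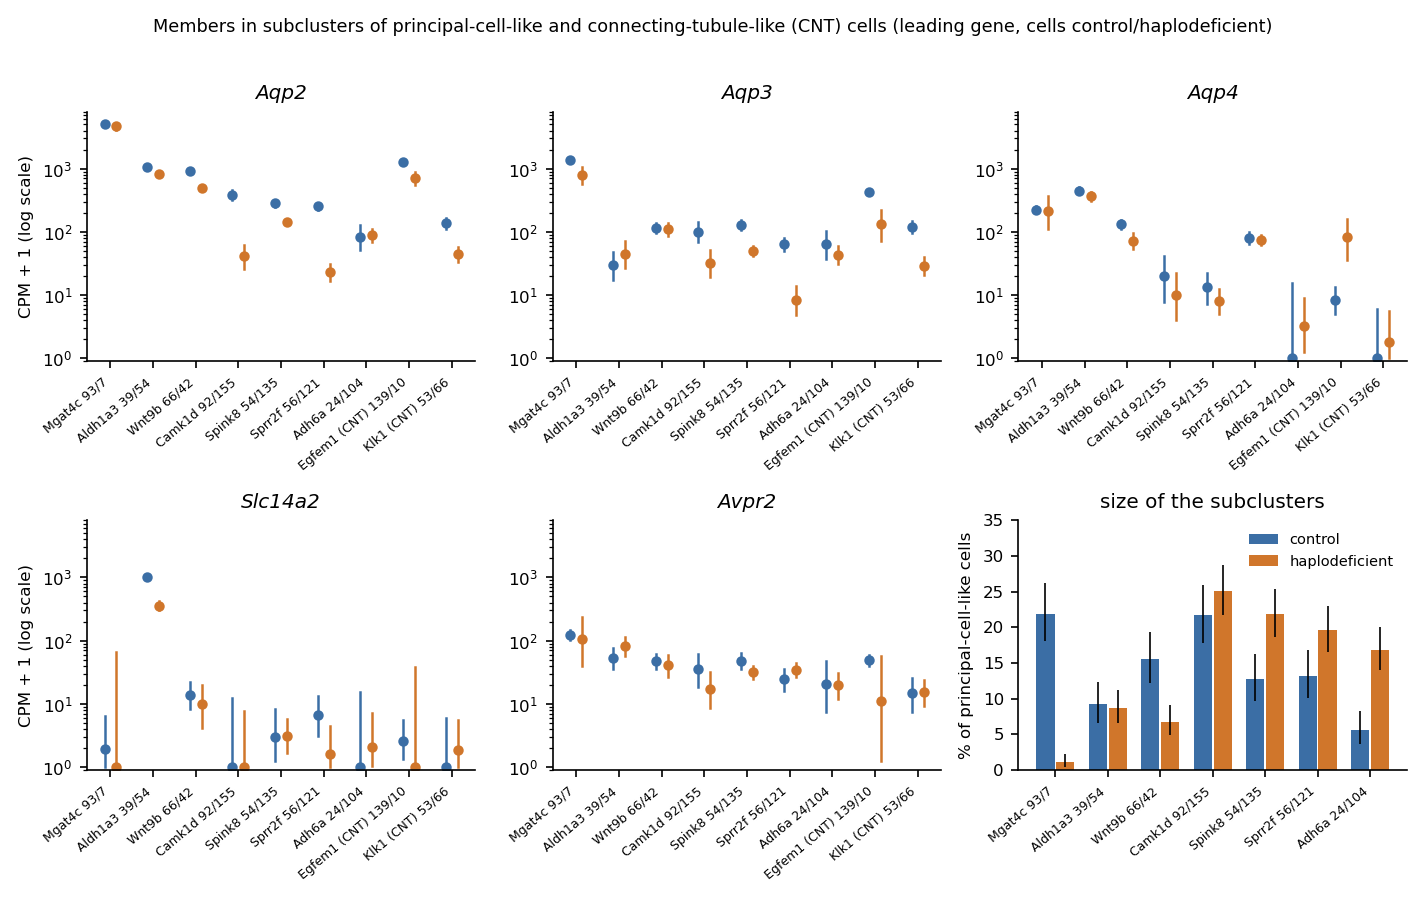
Levels of Aqp2, Aqp3, Aqp4, Slc14a2 and Avpr2 (CPM plus 1, log axis, exact Poisson 95% intervals) in 7 principal-cell-like and 2 connecting-tubule-like subclusters, with the share of principal-cell-like cells in each subcluster (percent, exact binomial 95% intervals). The Mgat4c-led subcluster has the highest Aqp2 in both libraries and holds 21.9% of control but 1.13% of haplodeficient principal-cell-like cells.

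In the subcluster led by Aldh1a3, a retinoic acid synthesis enzyme, the libraries had like shares of cells, 39 of the control (9.20%) and 54 of the haplodeficient (8.74%). Aqp2 was there at 1044 and 829 CPM, with a ratio of 0.793 (0.691 to 0.910), and Aqp4 at 446 and 363 CPM. Aqp3 was at 28.7 and 44.1 CPM. The same cells held most of the Slc14a2 of the class, at 1010 and 355 CPM, with a ratio of 0.352 (0.291 to 0.424). Slc14a2 and Aqp4 thus stood above the level of the whole class in these cells of both libraries, while Aqp3 was below the class level in the control and near it in the haplodeficient library. Slc14a2 was uneven among its cells: 5 cells held 282 of the 528 control UMIs and 79 of the 145 haplodeficient UMIs, and a UMI was seen in 32 of 39 and 27 of 54 cells. Aqp2 and Slc14a2 were seen together in 13 of 38 control and 3 of 53 haplodeficient thinned cells.

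The other 5 subclusters differed more widely in their ratios. The Wnt9b-led one (15.6% and 6.80% of the class) had Aqp2 at 912 and 490 CPM, and Aqp3 at 116 and 109 CPM. These levels rest on few cells: 5 cells held 655 of 1050 control and 284 of 334 haplodeficient Aqp2 UMIs. For Aqp3, 5 cells held 96 of 133 and 69 of 74 UMIs. The cells led by Camk1d (21.7% and 25.1%) were shallow, with a median of 2870 and 2979 UMIs, and had 15.5% and 13.3% mitochondrial UMIs. There Aqp2 was at 385 and 40.3 CPM, with a ratio of 0.105, and in the subcluster led by Sprr2f, a gene of the cornified envelope family (13.2% and 19.6%), at 251 and 22.0 CPM, with a ratio of 0.0877. These last 2 subclusters had the lowest Aqp2 of the 7 in the haplodeficient library. The subcluster led by Spink8, a protease inhibitor gene (12.7% and 21.8%), had 280 and 140 CPM. The one led by Adh6a held 24 and 104 cells (5.66% and 16.8%), and its Aqp2 level was low in both libraries, at 83.2 and 86.9 CPM, with a ratio of 1.04 (0.638 to 1.78). Of the 7 subclusters, Aqp2 had an interval wholly below 1 in 5 and an interval that held 1 in the Mgat4c-led and Adh6a-led ones. For Avpr2 the interval lay below 1 in the Spink8-led subcluster (46.9 and 30.8 CPM, with a ratio of 0.657, 0.448 to 0.971) and held 1 in the other 6. For Aqp4 it lay below 1 in the Wnt9b-led subcluster (131 and 71.9 CPM, with a ratio of 0.548, 0.389 to 0.761) and held 1 in 5, while the Adh6a-led one had 0 and 2 UMIs. Whether the ratios of the receptor and of the channels differ within subclusters was not tested.

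Both the mixture and the levels within subclusters thus differed between the libraries. With each subcluster given the same weight in both libraries, the principal-cell-like level of Aqp2 was 976 and 713 CPM (ratio 0.731, log2 -0.45), that of Aqp3 237 and 128 CPM (0.541, log2 -0.86) and that of Aqp4 99.8 and 80.8 CPM (0.810, log2 -0.29), and none of the 3 passed the size rule. This weighting rests on the 7 haplodeficient cells of the Mgat4c-led subcluster. With that subcluster left out of both libraries, Aqp2 was at 532 and 174 CPM (log2 -1.58), Aqp3 at 90.3 and 42.0 CPM (log2 -1.02) and Aqp4 at 113 and 51.8 CPM (log2 -1.06), all past the rule. Slc14a2 had too low a mean for the rule when the 5 cells with the most UMIs were left out (52.5 and 12.1 CPM) or when each cell was named alone (76.3 and 22.2 CPM), with the control library higher in each.

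Connecting-tubule-like cells, the segment before the collecting duct, numbered 192 control and 76 haplodeficient. Aqp2 was at 945 CPM (908 to 982) and 94.1 CPM (78.1 to 112), a ratio of 0.0996 (0.0824 to 0.119), and Aqp3 at 341 and 36.2 CPM, with a ratio of 0.106 (0.0776 to 0.143). Both passed the size rule, as did 2.53% of genes there as lower, 3.3% as higher and 5.83% in either direction. After thinning, Aqp2 was seen in 92 of 189 and 6 of 75 cells. The class joined an Egfem1-led subcluster (139 and 10 cells) and a Klk1-led one (53 and 66 cells). Klk1 encodes kallikrein, an enzyme made in this segment. In the Egfem1-led cells Aqp2 was at 1253 and 705 CPM, with a ratio of 0.563 (0.437 to 0.714), and Aqp3 at 425 and 131 CPM. In the Klk1-led cells Aqp2 was at 138 and 43.4 CPM, and Aqp3 at 120 and 28.4 CPM. The Aqp2 call ended with equal subcluster weights (615 and 327 CPM) and with likely doublets kept (1708 and 1415 CPM), and the Aqp3 call with doublets kept (532 and 274 CPM).

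Over the whole collecting system, whatever the name of the cells, Aqp2 was at 963 and 140 CPM, with a ratio of 0.146. Some subclusters stayed unnamed because they mixed intercalated genes with principal or connecting tubule genes. In the one of type B and connecting tubule genes (95 and 28 cells), Aqp2 was at 684 and 231 CPM. It was seen there in 14.3% and 17.9% of cells thinned to 1000 UMIs, and in 28.4% and 3.57% at 2000 UMIs. In the one of type B and principal genes (116 and 138 cells), the shares at 1000 UMIs were 23.3% and 5.80%. Aqp2 was at 2562 and 1392 CPM in 44 and 5 cells led by Mgat4c and the intercalated cell gene Slc4a1. Those cells had a median of 27158.5 and 28751 UMIs. The level over all cells was 154 and 26.5 CPM, and in free RNA 138 and 21.6 CPM. The free RNA does not depend on how cells were named, and it differed between the libraries by a like factor. It comes from the same 2 libraries with their different cell make-up, so it is no independent check. In free RNA the ratio was also wholly below 1 for Aqp1 (0.441), Aqp3 (0.233), Aqp4 (0.374), Aqp6 (0.475) and Aqp11 (0.382). It held 1 for Slc14a2 (0.959, 0.761 to 1.21), Slc14a1 (1.11, 0.607 to 2.03) and Avpr2 (0.675, 0.408 to 1.10).

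Genes that work with the receptor and the channels in principal-cell-like cells were read against the same rule. None passed among 8 of 17 genes of vasopressin, cAMP and protein kinase A signalling that had enough CPM (median log2 -0.12), among 9 of 11 transcription factors linked to Aqp2 (median log2 -0.29), among 5 of 10 genes of the tonicity response (-0.47), or among 10 of 10 genes of sodium and potassium transport (-0.56). The median over all genes was -0.04, and with 1.46% of all genes past the rule in this class, counts of 0 lie near that background. Hsd11b2, Scnn1b, Scnn1g, Kcne1 and Fxyd4 of the sodium and potassium list are among the markers that named the class. So are Gata3 and Elf5 of the transcription factors. These genes are therefore not independent of the class. Gnas, the stimulatory G protein that couples the receptor to cAMP, was at 700 and 787 CPM, and Pde4d, which breaks cAMP down, at 537 and 290 CPM. Tfcp2l1, a principal cell transcription factor, was at 483 and 394 CPM, Elf3 at 303 and 308 CPM, and Nfat5, the factor of the tonicity response, at 523 and 375 CPM. The sodium pump regulator Fxyd4 was at 1752 and 1782 CPM and the pump subunit Atp1b1 at 1792 and 1182 CPM. Genes of dissociation stress also held none past the rule (11 of 11 with enough CPM, median log2 -0.24).

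In connecting-tubule-like cells 2 of 9 of these transcription factors, 2 of 10 genes of sodium and potassium transport and 1 of 6 of the tonicity response passed as lower, and 2 of 11 stress genes as higher, beside 2.53% and 3.3% of all genes there. None of 7 genes of vasopressin signalling passed. Those lower were the transcription factors Gata2 (137 and 54.8 CPM) and Ehf (211 and 103 CPM), the mineralocorticoid receptor Nr3c2 (692 and 326 CPM), the potassium channel subunit Kcne1 (286 and 87.9 CPM) and the taurine transporter Slc6a6 (103 and 46.3 CPM). The stress genes Atf3 (769 and 2253 CPM) and Dusp1 (80.6 and 167 CPM) were higher. The median log2 ratio over all genes of this class was 0.15. Thus 2 of 11 stress genes were higher in the library where Aqp2 and Aqp3 were lower. The Egfem1-led subcluster gave 139 control but 10 haplodeficient cells of this class, and Kcne1 is among its leading genes. The values of these listed genes are over the whole class and do not separate its subclusters. The part of the stress genes in the aquaporin levels was not tested.

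Aqp6 (ENSMUSG00000043144, chr15:99601400-99605477), the vesicle channel of intercalated cells, was highest in type A intercalated-cell-like cells. These were 52 control and 25 haplodeficient cells, with 1364 CPM (1254 to 1482) and 879 CPM (749 to 1026), a ratio of 0.645 (0.538 to 0.769) that did not pass the size rule, as 3.57% of genes there did as lower. After thinning, Aqp6 was seen in 27 of 50 and 9 of 23 cells. The haplodeficient UMIs were concentrated: 5 cells held 135 of 161, against 166 of 564 in the control library. Without those 5 cells of each library the levels were 1147 and 232 CPM, past the rule, as they were with doublets kept (827 and 402 CPM), with each cell named alone (704 and 283 CPM) and with means of single-cell CPM (1216 and 555 CPM).

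Stress genes moved with Aqp6 in this class. Of 10 with enough CPM, 4 passed as lower (median log2 -0.83, with 0.05 over all genes), among them Egr1 (772 and 333 CPM) and Zfp36 (706 and 104 CPM). Their part in the Aqp6 level was not tested.

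The intercalated-cell-like class beside it, which did not separate into type A or B, held 93 and 126 cells. Aqp6 was at 399 CPM (367 to 432) and 164 CPM (149 to 180), a ratio of 0.411 (0.362 to 0.467), past the rule, as were 0.941% of genes there as lower and 1.54% in either direction. This call depended on how the cells were named. With a finer clustering the levels were 225 and 214 CPM, with each cell named alone 179 and 159 CPM, with means of single-cell CPM 438 and 217 CPM, and with control cells limited to a low mitochondrial share 253 and 164 CPM, none of which passed. Aqp3 was at 38.5 and 37.4 CPM in this class and at 89.5 and 98.3 CPM in type A intercalated-cell-like cells, with overlapping intervals. The libraries thus had like levels of Aqp3 in these named classes, unlike in principal-cell-like cells, but the difference of these ratios was not tested. Type A levels rest on 37 and 18 Aqp3 UMIs, of which 5 cells held 20 and 14. The intercalated-cell-like class joined subclusters of 61 and 62 and of 32 and 64 cells, which its level does not separate. In the unnamed cells of type B and principal genes, 14 of 116 and 7 of 138 had Aqp3 at 1000 UMIs. In those of type B and connecting tubule genes, 15 of 91 and 6 of 28 had it. At 2000 UMIs, 31 of 88 and 7 of 28 did. Aqp2 was at 48.7 and 40.8 CPM and Avpr2 at 12.2 and 14.6 CPM in the intercalated-cell-like class.

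Slc14a2 (ENSMUSG00000024552, chr18:78146148-78596942, minus strand) and Slc14a1 (ENSMUSG00000059336, chr18:78100091-78142119, minus strand) lie 4028 bases apart on the same strand and were read in different cells. Slc14a2, urea transporter A, was highest in thin-limb-like cells, 352 control and 667 haplodeficient, with 538 CPM (520 to 557) and 333 CPM (321 to 345), a ratio of 0.618 (0.587 to 0.650) that did not pass the size rule. The UMIs came from 121 and 195 cells, and 5 cells held 1092 of 3138 control and 1038 of 2976 haplodeficient UMIs. A small number of cells thus carried much of the gene in both libraries. Slc14a1 was at 7.38 and 3.24 CPM there. After thinning, Slc14a2 was seen in 16.1% and 12.3% of thin-limb-like cells and in 0 of 524 and 0 of 481 thick ascending limb-like cells, which allows up to 0.573% and 0.624% of cells with a UMI at this depth (3 cells of the total).

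The thin-limb-like subclusters carried Aqp1 and Slc14a2 in different proportions. The Prss22-led subcluster (124 and 225 cells) had Slc14a2 at 1046 and 515 CPM, with a ratio of 0.492, and nearly no Aqp1, at 4.60 and 2.98 CPM. The Mep1a-led subcluster (110 and 145 cells) had Aqp1 at 595 and 184 CPM, with a ratio of 0.310, with Slc14a2 at 64.0 and 69.4 CPM. Against the other thin-limb-like cells, its leading genes were mostly known from the proximal tubule (Mep1a, Slc7a12, Kap, Slc6a18) and held no thin limb marker, while the summed thin limb markers stood at 4889 and 4076 CPM, above the 3770 and 3707 CPM of the Prss22-led cells. This subcluster is therefore called by its leading gene. The Camk1d-led subcluster, 19.3% of control and 34.6% of haplodeficient thin-limb-like cells, had Slc14a2 at 420 and 274 CPM and Aqp1 at 88.8 and 46.7 CPM. Its cells were shallow, with a median of 5272.5 and 5361 UMIs, and had 6.26% and 3.68% mitochondrial UMIs, with Lars2 and mt-Nd6 among the leading genes. The Cfap52-led subcluster (50 and 66 cells) held both genes and went the other way, with Aqp1 at 171 and 282 CPM, with a ratio of 1.65, and Slc14a2 at 154 and 337 CPM, with a ratio of 2.19 (1.68 to 2.85). Thick ascending limb markers summed to 3036 and 1972 CPM in those cells. Of thinned thin-limb-like cells, 2 of 348 control and 5 of 658 haplodeficient had UMIs of both Aqp1 and Slc14a2, 32 and 24 of Aqp1 alone, and 54 and 76 of Slc14a2 alone. The share with both was 0.575% and 0.760%, where independent detection at the same shares would give 1.57% and 0.543%.

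**Figure D4:**
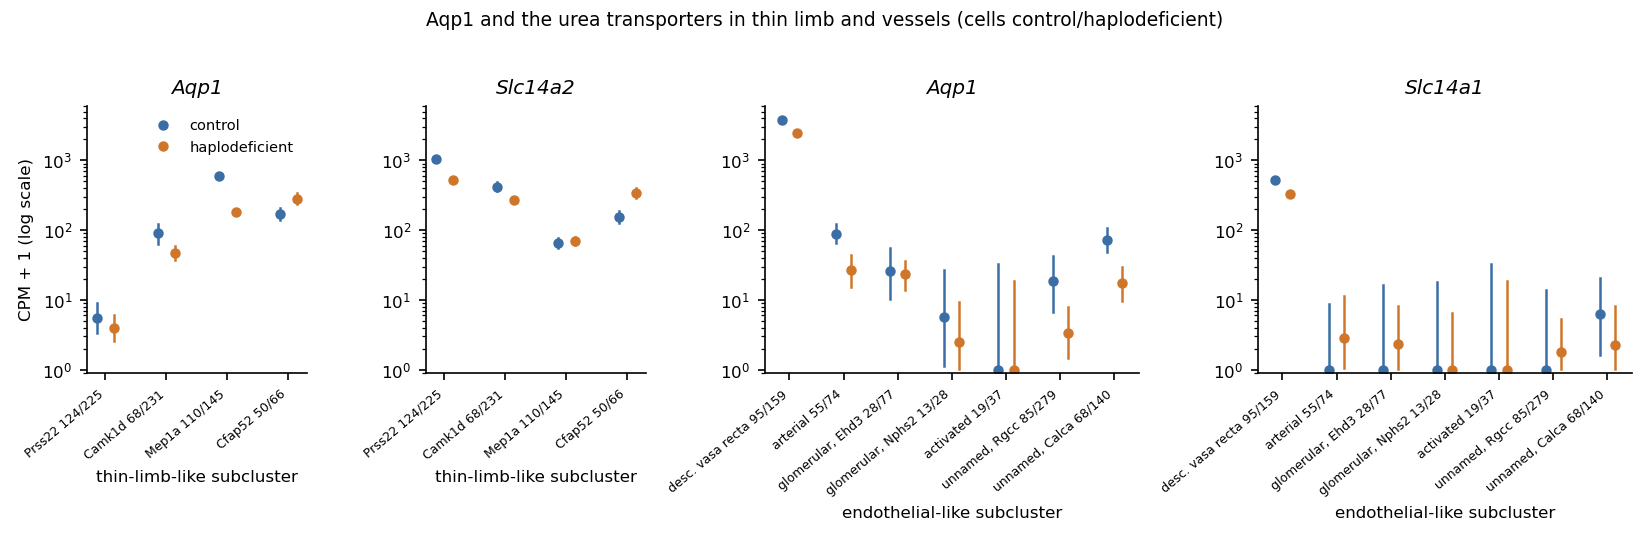
Levels (CPM plus 1, log axis, exact Poisson 95% intervals) of Aqp1 and Slc14a2 in 4 thin-limb-like subclusters and of Aqp1 and Slc14a1 in 7 endothelial subclusters of both libraries. In the thin limb, Slc14a2 is highest where Aqp1 is lowest, and in the vessels both genes peak in the descending vasa recta-like cells.

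Aqp1 (ENSMUSG00000004655, chr6:55336432-55348555), the constitutive water channel, was at 249 CPM (236 to 262) and 78.4 CPM (72.7 to 84.5) over all thin-limb-like cells, a ratio of 0.315 (0.288 to 0.345), past the size rule. Of all genes there, 0.816% passed as lower and 1.24% in either direction. The Mep1a-led subcluster, where most of it lay, made up 31.2% of control and 21.7% of haplodeficient thin-limb-like cells, and 5 of its cells held 460 of 1292 and 283 of 497 UMIs. Its markers of the injured proximal tubule summed to 2565 and 1636 CPM and those of the S1/S2 proximal tubule to 345 and 167 CPM, and their part in the Aqp1 level was not tested. Without that subcluster the levels were 43.2 and 32.8 CPM (log2 -0.35), and with control cells limited to a low mitochondrial share 106 and 78.4 CPM (log2 -0.41), and each ended the call. Of the other listed genes in the thin limb, Umod, the uromodulin gene of the thick ascending limb, passed as lower (483 and 230 CPM), and the tonicity response had a median log2 of -0.67 over 7 of 10 genes, with -0.02 over all genes.

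Descending vasa recta-like endothelium, 95 control and 159 haplodeficient cells, carried both Aqp1 and Slc14a1. Aqp1 was at 3821 CPM (3677 to 3969) and 2451 CPM (2357 to 2547), a ratio of 0.641 (0.607 to 0.677). Slc14a1, urea transporter B, was at 527 CPM (474 to 583) and 332 CPM (298 to 368), a ratio of 0.630 (0.543 to 0.731). The genes had like ratios, and neither passed the size rule, as 1.63% of genes there did as lower. With each cell named alone both did, at 2736 and 1197 CPM for Aqp1 and 373 and 173 CPM for Slc14a1. After thinning, Aqp1 was seen in 79 of 91 and 128 of 155 cells, and Slc14a1 in 28 and 36 cells, of which 27 and 33 also had Aqp1. Hbb-bs, a hemoglobin gene of red cells, which carry Slc14a1 themselves, was at 2.87 and 0.950 CPM in these cells. Aqp11 (ENSMUSG00000042797, chr7:97724006-97738289, minus strand) was also highest here, at 122 and 119 CPM, with a ratio of 0.976 (0.736 to 1.30).

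Other genes of the descending vasa recta-like cells were lower as well. In the tonicity response, 3 of 8 genes with enough CPM passed as lower (median log2 -0.95, against -0.05 over all genes): the aldose reductase gene Akr1b3 (257 and 101 CPM), the inositol transporter gene Slc5a3 (156 and 52.9 CPM) and S100a4 (263 and 86.9 CPM). The last 2 are among the markers that named the class, so they are not independent of it. The stress genes Fosb (596 and 243 CPM), Atf3 (649 and 278 CPM) and Zfp36 (728 and 220 CPM) passed as lower too (median log2 of the list -0.93), and so did the mineralocorticoid receptor gene Nr3c2 (443 and 204 CPM). The part of either list in the levels of Aqp1 and Slc14a1 was not tested.

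Over all endothelial-like cells Aqp1 was at 1145 and 501 CPM, with a ratio of 0.437 (0.414 to 0.461), and Slc14a1 at 154 and 67.3 CPM, with a ratio of 0.437 (0.377 to 0.507), both past the rule, as were 0.639% of genes there as lower and 0.852% in either direction. The vasa recta-like cells made up 26.2% of control and 20.03% of haplodeficient endothelial-like cells. With equal subcluster weights Aqp1 was at 914 and 575 CPM and Slc14a1 at 123 and 77.4 CPM, neither past the rule. The call of Aqp1 also ended with means of single-cell CPM (1098 and 553 CPM), and that of Slc14a1 with a pseudocount of 20 CPM. In arterial-like endothelium (55 and 74 cells) Aqp1 was at 88.6 and 26.0 CPM, with a ratio of 0.293 (0.148 to 0.548), past the rule with 42 and 14 UMIs, as were 1.4% of genes there as lower and 2.2% in either direction. Of the 42, 5 cells held 22, and without the 5 top cells of each library the levels were 52.5 and 13.01 CPM, too low for the rule. An unnamed cluster of endothelial and pericyte genes (42 and 69 cells) had Aqp1 at 2319 and 1255 CPM and Slc14a1 at 345 and 123 CPM.

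In the proximal tubule Aqp1 carries most of the water taken back from the filtrate. Aqp1 was at 275 and 232 CPM in S3-like cells, a ratio of 0.844 (0.734 to 0.967), and at 110 and 74.4 CPM in S1/S2-like cells, a ratio of 0.676 (0.601 to 0.758). Neither passed the rule, as 0.961% of genes in S3-like and 1.06% in S1/S2-like cells did as lower, and 1.85% and 1.65% as higher. After thinning, Aqp1 was seen in 21.8% and 11.9% of S3-like cells and in 9.78% and 9.01% of S1/S2-like cells. The S3-like cluster led by Akr1c18 (87 and 10 cells) had 509 and 563 CPM, and 5 of its cells held 131 of 598 and 49 of 56 UMIs. Over all S3-like cells, 5 cells held 132 of 4923 control and 61 of 218 haplodeficient Aqp1 UMIs. Aqp11, whose loss in mice causes proximal tubule vacuoles and cysts, was at 36.0 and 30.9 CPM in S1/S2-like cells and at 35.9 and 42.6 CPM in S3-like cells, a ratio of 1.19 (0.840 to 1.63). The control library held most of the cells behind these values, with 1416 S3-like cells against 84. Of 9 dissociation stress genes with enough CPM, 4 passed as higher in each of these classes (median log2 0.86 in S1/S2-like and 0.85 in S3-like cells, with 0.18 over all genes of either), and their part in the Aqp1 levels was not tested.

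Injured proximal tubule-like cells (322 and 167) were an exception for Aqp1. The control level was 15.7 CPM and the haplodeficient level 72.2 CPM, a ratio of 4.61 (3.57 to 6.01), with a mean too low for the size rule. A UMI was seen in 52 and 57 cells, and 5 cells held 78 of the 215 haplodeficient UMIs. After thinning it was seen in 9 of 321 and 10 of 166 cells. The summed markers of S1/S2 proximal tubule were at 2189 and 1563 CPM in these cells and those of the thin limb at 1503 and 1657 CPM. Their part in the difference was not tested.

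Some signal lay outside the segments these genes are known for. Slc14a1 was seen in leukocytes, at 17.8 and 8.81 CPM over all of them, from 136 UMIs in 109 control cells and 171 UMIs in 138 haplodeficient cells. Free RNA at its estimated share would bring 0.173 and 0.132 CPM. It was at 17.0 and 6.81 CPM in macrophage-like cells, a ratio of 0.401 (0.289 to 0.554), and at 14.2 and 15.7 CPM in T-cell-like cells. Single leukocytes with a few Slc14a1 UMIs were thus found in both libraries. Aqp3 was at 70.9 and 74.6 CPM in a T-cell-like cluster led by Il17a and Trdc (24 and 119 cells), and at 71.1 and 81.4 CPM in urothelium-like cells (19 and 24). The levels of Aqp3 in both overlapped between the libraries. In the Wt1-positive cluster Slc14a2 was at 3.44 and 44.1 CPM, but 5 cells held 151 of the 154 haplodeficient UMIs, and in pericyte-like cells it was at 1.52 and 42.6 CPM, with 52 UMIs in 2 cells.

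Over 38 profiles (19 classes in 2 libraries), the 9 genes fell into sets by Pearson correlation of their log levels. The points share libraries, depth and nested lineages, so the values are a description. The 19 classes leave out the type A intercalated-cell-like cells, where Aqp6 was highest. Kcne1, Elf5 and Foxi1, named below, are among the markers that named the classes, so their correlations are not independent of that naming. Avpr2 and Aqp2 correlated at 0.94, Aqp2 and Aqp3 at 0.91, Aqp3 and Avpr2 at 0.89, and Aqp1 and Aqp11 at 0.88. Of all genes, those most like Aqp2 were Kcne1, Col26a1 and Avpr2 (0.94 each), and those most like Aqp3 were Aqp2, Avpr2 and Kcne1. Aqp2 and Aqp3 thus had each other or their receptor among their nearest genes. Aqp4 was most like Elf5 (0.98), an epithelial transcription factor, followed by Nhlrc4 (0.95) and Ros1 (0.94), and Avpr2 most like Tmem45b (0.95), Nhlrc4 (0.95) and A930017K11Rik (0.94). Aqp6 was most like Guca2a (0.98), which encodes guanylin, Foxi1 (0.97), the transcription factor of intercalated cells, and Asb15 (0.97). Slc14a1 was most like the endothelial gene Esm1 (0.89), then Fam167b (0.86) and Lef1 (0.83), and Slc14a2 most like Upk3b (0.90), Uncx (0.83) and Cfap52 (0.82), a gene of motile cilia. Aqp1 was most like Tmem252 (0.88), Aqp11 (0.88) and Afap1l1 (0.86), and Aqp11 most like Fbxo7 (0.90), Pcdh17 (0.90) and Aqp1 (0.88).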

How the data were processed

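The deposited values were raw UMI counts per gene and barcode of 1 control and 1 haplodeficient library, made by the authors with Cell Ranger 4 per the file headers, on mm10 per the submitters' processing notes, from 3′ v3.1 chemistry per the labels' protocols, with no filter on cells. A cell-hashing library is mentioned in the labels and was not used here. Of the gene identifiers, 99.6% matched GENCODE M21 on GRCm38, which gave the coordinates, and promoters came from RefSeq.

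Barcodes of 500 UMIs and 200 genes or more, with up to 50% of UMIs mitochondrial, were kept as cells, and 715 control and 804 haplodeficient cells with the highest Scrublet scores (0.8% per 1000 cells) were removed as likely doublets. Both libraries were clustered together in scanpy 1.11.5 without the 9 genes (2000 variable genes, 30 components, 15 neighbours, Leiden resolution 1, leidenalg 0.10.2), which gave 35 clusters. The collecting system, thin limb and endothelium were clustered again (20 components, resolution 1.5, 0.5 and 0.5). A class needed at least 3 of its markers in at least 10% of cells at 2-fold or more, and at least 50% of its list. That scoring and the second clustering were set after the data were seen, and other names of cells are possible. Clusters led by genes of several classes stayed unnamed.

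UMIs were summed per class and library. CPM, ratios with exact conditional binomial intervals, log2 ratios with 5 CPM added, and exact Poisson and Clopper-Pearson intervals (scipy 1.17.1) were computed from them. No test between groups was run, since each group was 1 library. Listed genes and pairs at a mean of 50 CPM and 30 UMIs were read against the size rule. Free RNA came from barcodes of 1 to 100 UMIs, and its share per class from markers of other classes. Steps were tested on simulated data. The 9 genes, the gene lists and the alternatives were chosen with earlier results of these data known. The text names every one of the 9 genes, listed genes past the size rule or with the highest levels, and the 3 genes with the highest correlation to each member.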

Additional observations from a re-analysis of the deposited data

How the results depend on the processing

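No paired analysis was possible because each group was 1 library, and no library could be left out. The libraries differed in depth, cell make-up and mitochondrial share, and levels in classes of under 100 cells rest on few molecules. None of the 11 pairs past the size rule changed sign under any alternative that gave a value. Other pairs did. The sign was kept in 46 of 55 pairs with each cell named alone and in 42 of 47 with doublets kept. It was kept in 48 of 55 without the 5 cells with most UMIs and in 49 of 55 with expected free RNA subtracted. The other alternatives run on all 55 pairs kept it in 50 or more. In principal-cell-like cells the log2 ratio of Aqp2 was -2.73, and -2.65 at Leiden resolution 2, -2.93 as the mean of single-cell CPM, -0.45 with the same cluster weights in both libraries, -2.64 with a pseudocount of 20 CPM, -1.58 without the Mgat4c-led subcluster, -2.98 without the 5 cells with most UMIs and -2.60 with control cells up to their median mitochondrial share. For Aqp3 it was -2.70, and -2.64 at resolution 2, -0.86 with the same weights, -2.41 with 20 CPM, -1.02 without that subcluster and -2.49 with the limited control cells. For Aqp4 it was -1.27, and -1.13 as the mean of single-cell CPM, -0.29 with the same weights, -1.08 with 20 CPM and -1.06 without the subcluster. For Slc14a2 in thin-limb-like cells it was -0.69, and -0.82 at resolution 2, -0.77 with each cell named alone, -0.91 with the limited control cells and -0.87 without the Mep1a-led subcluster. For Aqp1 in descending vasa recta-like cells it was -0.64, and -1.19 with each cell named alone and -0.75 with the limited control cells. The cause of these moves was not tested. The 11 pairs past the size rule numbered 5 with the same weights, 15 with each cell named alone (8 kept, 5 others of the 55 and 2 outside them) and 17 at a minimum of 10 CPM (14 lower, 3 higher), and 9 to 11 under the others. The difference in the share of principal-cell-like cells with Aqp2 was -31.5 percentage points at 1000 UMIs, -33.7 at 2000 UMIs and -37.0 without thinning. The highest class was the same in 17 or 18 of 18 cases. Listed genes past the rule numbered 15 in principal-cell-like, connecting-tubule-like, thin-limb-like, endothelial-like and descending vasa recta-like cells, 21 at 10 CPM and 15 with median-of-ratios scaling. With doublets kept, no value was had for 8 of the 55 pairs, in the descending vasa recta-like and intercalated-cell-like classes. Leaving out either subcluster or the 5 cells and limiting control cells were chosen after seeing the data.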
